A study of Mus musculus with 22 samples.

Results

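The calcium/calmodulin-dependent protein kinases described here are 8 genes chosen by symbol: the 4 subunit genes of the multifunctional kinase CaMKII (Camk2a, Camk2b, Camk2d and Camk2g), its endogenous inhibitor Camk2n1, the largely nuclear kinase Camk4, and the upstream kinases Camkk1 and Camkk2. All 8 have a row among the 29848 genes of the tables. RNA was taken from hippocampal CA1 dissections of C57BL/6 mice carrying Camk2a-tTA and tetO-EGFP-L10a, so that a GFP-tagged ribosomal protein is made in cells where the Camk2a promoter is active; this driver is the promoter of one of the genes described. Every group carried both transgenes. Tagged ribosomes were immunoprecipitated from the dendrite and soma layers with the antibody HtzGFP-19C8, and the supernatant is the RNA left behind. Home cage and fear conditioned mice gave 2 immunoprecipitates each from dendrite and from soma, 8 in all, and 3 supernatants were sequenced: those of both fear conditioned layers numbered 2, and that of home cage dendrite 2. Each of the 11 libraries had 2 runs, paired-end and single-end; the single-end run is a technical repeat and adds nothing to n. The labels give no age or sex, and do not say whether numbered libraries come from separate animals, so p-values measure the spread between these libraries, which may be partly technical.

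CaMKII is a large holoenzyme that binds calcium-loaded calmodulin, phosphorylates itself and then stays active after calcium falls. Camk2a and Camk2b are its main subunits in forebrain neurons, and Camk2a mRNA is a classic example of an mRNA carried into dendrites through its 3′ UTR. Camk2n1 binds the active kinase and blocks it. Camkk1 and Camkk2 phosphorylate and activate Camk4, which acts on transcription factors such as CREB.

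The subunit genes are close paralogs, which bears on whether a read can be placed on one of them. The stretch below codes for the autophosphorylation segment of 3 subunits, from the GENCODE M21 transcripts (GRCm38), 60 bases each, 5′ to 3′; capitals mark the 23 positions at which the 3 are not all the same.
Camk2b: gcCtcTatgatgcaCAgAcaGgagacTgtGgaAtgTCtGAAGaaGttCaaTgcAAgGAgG
Camk2d: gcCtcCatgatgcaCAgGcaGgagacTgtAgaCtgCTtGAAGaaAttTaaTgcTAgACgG
Camk2g: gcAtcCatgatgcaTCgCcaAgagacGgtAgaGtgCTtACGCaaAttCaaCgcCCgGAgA
Even in this conserved segment identical stretches were short. Over the longest transcript that holds this segment, the longest identical run was 32 bases between Camk2a and Camk2b, 29 bases between Camk2g and either Camk2a or Camk2b, and 23 bases for the other pairs. In the deposited mm9 annotation the Camk2g row joins 3 models on chromosome 14 (21555877 to 21613310) with 1 model on chromosome 3 (126299891 to 126470699), so its value is not that of a single locus. That chromosome 3 model lies within the Camk2d locus and begins at the same base as models of the Camk2d row (126299891 to 126545877). The Camk2b row (chromosome 11, 5871632 to 5965751) also holds a model with a separate 3′ UTR block at 5911668 to 5915195. The coding part of Camk2n1 (chromosome 4, 138011063 to 138012901) is only 473 bases long, whereas the rest of its 3′ UTR is 3140 bases.

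Values are FPKM (fragments per kilobase of transcript per M mapped fragments, with M for mega) as deposited, or scaled FPKM, which are divided by a factor for each library. Each gene has 2 values: a coding part, which also holds the 5′ UTR and the start of the 3′ UTR, and the rest of the 3′ UTR. From the spacing of low values the paired-end libraries held about 6.09 to 38.1 M fragments and the single-end runs about 0.550 to 11.4 M reads. Home cage soma 2 stands apart: 74.0% of its coding-part FPKM came from Rpsa, a ribosomal protein gene, and its scaling factor was 0.267 against 0.597 to 2.31 in the other immunoprecipitates. Markers of other cell types were present in both layers. The summed level of 10 astrocyte markers was 86.7 to 225 scaled FPKM in the dendrite immunoprecipitates and 2.40 to 55.9 in the soma immunoprecipitates, without overlap, and 215 to 267 in the dendrite supernatants; its part in the results below was not tested. The 7 oligodendrocyte markers summed to 5.77 to 60.6 in dendrite and 0.955 to 64.2 in soma immunoprecipitates, with overlap. The 5 markers of CA1 pyramidal neurons summed to only 1.06 to 15.4 in dendrite and 0 to 5.63 in soma immunoprecipitates, and all 5 were listed at 0 in 1 soma library. In bulk RNA fewer cells of a type and less RNA per cell cannot be told apart.

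Camk2a was the most abundant member in 10 of the 11 libraries and led the family in every dendrite library. Its coding part stood at 58.6 scaled FPKM in home cage dendrite 1, 586 in home cage dendrite 2, 114 in fear conditioned dendrite 1 and 382 in fear conditioned dendrite 2. In the soma immunoprecipitates it stood at 24.7 and 8.61 in the home cage and at 28.9 and 63.3 after fear conditioning. Of the 4 dendrite libraries 3 lay above all 4 soma libraries, while home cage dendrite 1 lay below fear conditioned soma 2, so the groups overlapped. The difference of the means was 2.92 on the log2(scaled FPKM + 1) scale (SE 1.10, n = 4 against 4), dendrite higher. It did not pass: limma's adjusted p was 0.650, and the exact permutation test gave p = 0.0571 (two-sided), where 0.0286 is the smallest p this design allows.

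**Figure D1:**
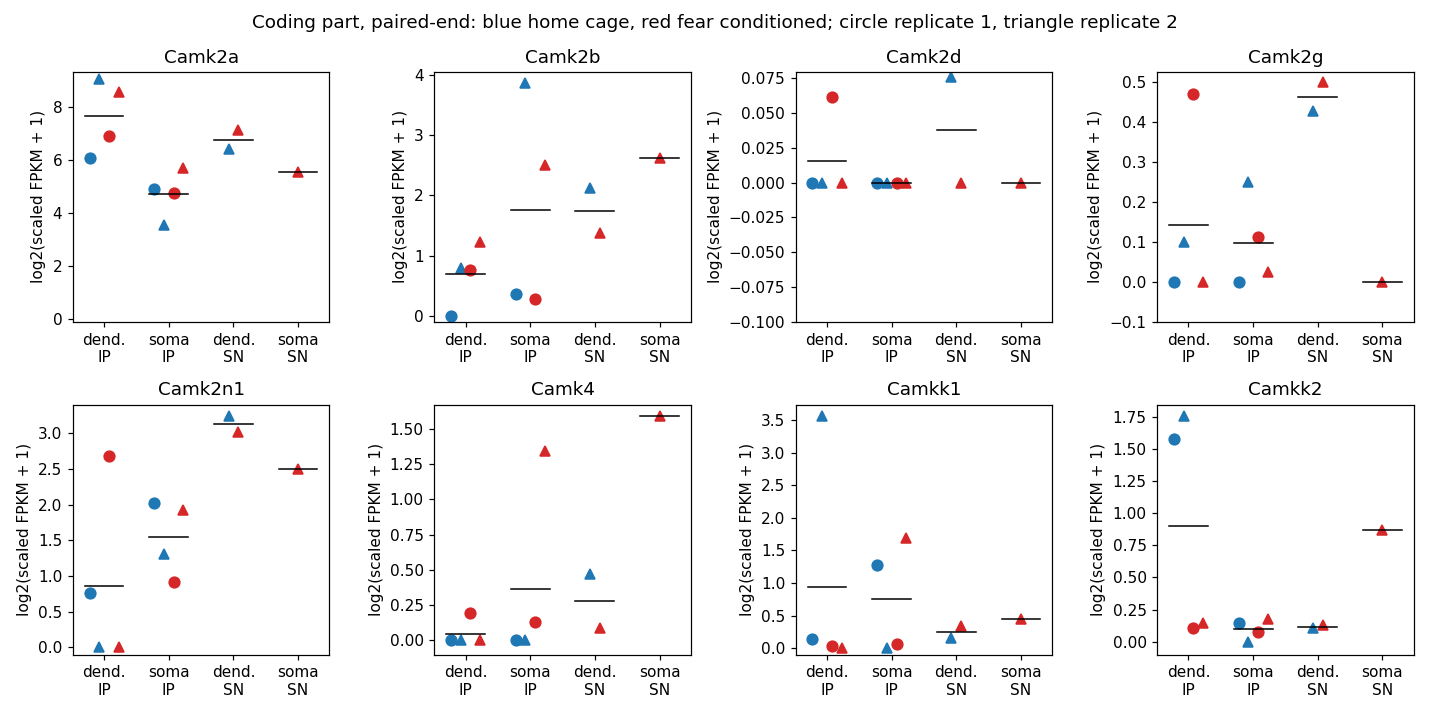
Coding part of each member by library, as log2(scaled FPKM + 1), with the scaling made over all 11 libraries; points are libraries (IP, immunoprecipitate; SN, supernatant), lines are means, and each panel has its own vertical axis. Camk2a lies far above the other members except in home cage soma 2, where it was at 10.9 scaled FPKM and Camk2b at 13.5. Camk2d, Camk2g and Camk4 stay near 0 in most libraries.

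Whether the Camk2a groups overlap depended on which genes set the scaling, and this was looked at with the Camk2a values in view. The scaling fixed for the comparison used the 870 genes above 0 in all 8 immunoprecipitates. After the overlap was seen, 5 further sets of scaling genes were tried. With 4 of the 5 the groups separated and the exact permutation p became 0.0286: genes with a mean FPKM of at least 1 (672 genes, lowest dendrite 67.0 against highest soma 51.3 scaled FPKM), of at least 0.5 (755 genes, 63.6 against 54.5), without certain name classes (771 genes, 60.2 against 54.6), and with a mean of at least 1 over 11 libraries (661 genes, 69.7 against 50.7). Leaving out mitochondrial names changed nothing. The FPKM as deposited overlapped, with 63.6 in home cage dendrite 1 against 109 in fear conditioned soma 2 (exact permutation p = 0.0571). The scaling over all 11 libraries, used for the supernatant comparison, also placed the lowest dendrite value (66.5) above the highest soma value (51.5). Because the sets were compared on this gene, the separations are a description and the p of 0.0571 stands as the result.

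**Figure D2:**
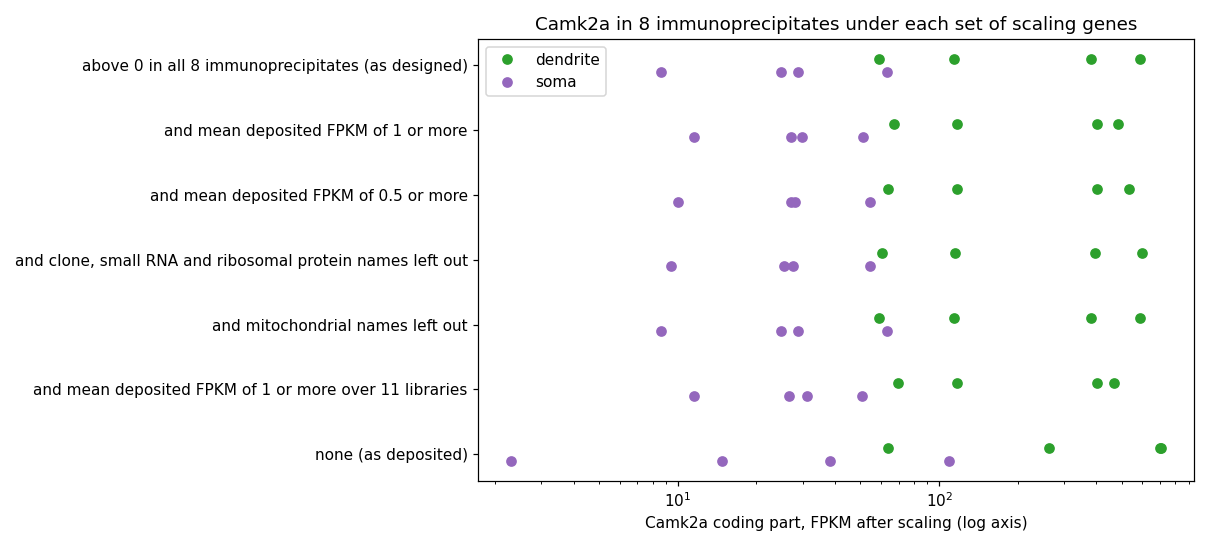
Camk2a coding part in the 8 immunoprecipitates (log axis, FPKM after scaling) under each set of scaling genes examined and as deposited; green points are dendrite and purple points soma libraries. The lowest dendrite library and the highest soma library change order between sets: 58.6 against 63.3 as designed, and 67.0 against 51.3 with a mean FPKM of at least 1.

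The library that decides this overlap was the shallowest paired-end library, and its 2 runs differed. Home cage dendrite 1 gave a Camk2a FPKM of 63.6 in the paired-end run, about 632 fragments, and of 535 in the single-end run, about 2086 reads. In fear conditioned dendrite 1 the order was opposite, with 263 paired-end and 112 single-end. In the single-end table, scaled in the same way, the dendrite values (66.7 to 704) all lay above the soma values (41.0 to 63.4), with an exact permutation p of 0.0286 and a log2 difference of 2.30.

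Across all genes the background was as follows. Of 2928 genes tested for dendrite against soma, limma called 0 (0%), and 139 had an unadjusted p under 0.05. Every dendrite library lay above every soma library for 1.71% of genes, and below for 1.74%. Of the 8 members, 4 (Camk2a, Camk2b, Camk2n1 and Camkk1) passed the minimum mean of 1 scaled FPKM and were tested; none was called and none separated. Their differences were positive for 2 and negative for 2, with a median of -0.25 against -0.30 over all genes tested.

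The balance between CaMKII subunits needs no scaling between libraries. Camk2a made up at least 99.1% of the summed FPKM of the 4 subunit genes in the dendrite immunoprecipitates. Its share in the soma immunoprecipitates was 99.1% and 44.3% in the home cage and 98.9% and 91.6% after fear conditioning. In the single-end runs the ranges were 96.8% to 99.9% in dendrite and 80.6% to 98.9% in soma, and they overlapped. The 44.3% comes from home cage soma 2, where Camk2a rested on about 56.9 fragments; the single-end run of the same library gave 98.9%, the highest of the soma immunoprecipitates.

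Camk2b, the other main forebrain subunit, was lower than Camk2a in every paired-end library except home cage soma 2. Its coding part stood at 0 and 0.813 scaled FPKM in the home cage dendrite and at 0.668 and 1.36 in the fear conditioned dendrite immunoprecipitates. In soma it stood at 0.236 and 10.7 in the home cage and at 0.233 and 5.75 after fear conditioning. In this run the replicate 2 soma libraries were high and the replicate 1 soma libraries were within the dendrite range, so the groups overlapped. The single-end run did not repeat this order: Camk2b stood there at 2.40 and 0.142 FPKM in home cage soma 1 and 2, at 9.32 and 28.8 in fear conditioned soma, and at 0.445, 1.20, 1.32 and 11.4 in dendrite, again with overlap. The difference was -1.02 (SE 0.95, adjusted p = 0.650 by limma, exact permutation p = 0.371). Camk2d, a subunit best known from heart, and Camk2g were not tested. The highest paired-end Camk2d coding value among immunoprecipitates was 0.0416 scaled FPKM, in fear conditioned dendrite 1, about 6.60 fragments. In the single-end run it was highest in the other layer, at 1.63 FPKM in fear conditioned soma 2, about 21.8 reads. Camk2g reached 0.369 scaled FPKM in the paired-end run of fear conditioned dendrite 1, about 34.3 fragments. Because 1 model of its row lies within the Camk2d locus, this value may hold reads of Camk2d.

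Camk2n1, the inhibitor, was unevenly measured. Its coding part stood at 0.613 and 0 scaled FPKM in the home cage dendrite and at 5.20 and 0 in the fear conditioned dendrite immunoprecipitates. In soma it stood at 2.59 and 1.17 in the home cage and at 0.972 and 3.45 after fear conditioning. The dendrite libraries held both the lowest values and the highest. The difference was -0.69 (SE 0.86, adjusted p = 0.689 by limma, exact permutation p = 0.343). In the single-end runs it was listed at 0 in all 4 dendrite immunoprecipitates and above 0 in all 4 soma immunoprecipitates, at 22.8, 2.46, 1.56 and 1.45 FPKM (exact permutation p = 0.0286). Of these soma values 3 rested on about 1.17 to 3.51 reads. The paired-end value of fear conditioned dendrite 1, about 88.0 fragments, had no counterpart in its single-end run.

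Camk4 and its upstream kinases were at 0 or low in most immunoprecipitates and higher in a few. Camkk1 stood at 0.0887 and 11.9 scaled FPKM in the home cage dendrite and at 0.0223 and 0 in the fear conditioned dendrite immunoprecipitates. Its high value was seen in both runs of home cage dendrite 2, with 14.4 FPKM paired-end and 11.7 single-end. These are 2 runs of 1 library, and the rest of the Camkk1 3′ UTR was listed at 0 in both. In soma the coding part of Camkk1 stood at 1.21 and 0 in the home cage and at 0.0428 and 2.74 after fear conditioning. The difference was 0.19 (SE 0.92, adjusted p = 0.925 by limma, exact permutation p = 0.857). Camkk2 was not tested: it stood at 1.75 and 2.63 in the home cage dendrite libraries and under 0.16 in the other 6 immunoprecipitates. In the single-end run those 2 dendrite libraries gave 0.948 and 1.42 FPKM, but fear conditioned soma gave 0.880 and 1.14. Camk4 was listed at 0 in 5 of 8 immunoprecipitates and was highest in fear conditioned soma 2, at 1.89 scaled FPKM, about 189 fragments. In the single-end run it was highest in fear conditioned soma 1, at 14.6 FPKM, stood at 10.1 in fear conditioned soma 2, and was listed at 0 in the other 6.

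The rest of the 3′ UTR was compared next, because Camk2a mRNA is carried into dendrites through its 3′ UTR. The start of that 3′ UTR is counted in the coding part. For Camk2a it stood at 354 and 870 scaled FPKM in the home cage dendrite and at 101 and 297 in the fear conditioned dendrite immunoprecipitates. In soma it stood at 38.6 and 10.05 in the home cage and at 109 and 128 after fear conditioning. Fear conditioned dendrite 1 lay below both fear conditioned soma libraries, so the groups overlapped here through another library than in the coding part. The difference was 2.64 (SE 0.94, adjusted p = 0.596 by limma, exact permutation p = 0.0857). As deposited, the same values did not overlap: 233 to 1050 FPKM in dendrite and 2.68 to 220 in soma (exact permutation p = 0.0286). Of 2270 genes tested on this part limma called 0 (0%), 150 had an unadjusted p under 0.05, dendrite lay above soma without overlap for 0.793% and below for 1.85%. The 3 members tested (Camk2a, Camk2b and Camk2n1) all overlapped.

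For Camk2b and Camk2n1, the other members tested on this part, the order of the libraries was not that of their coding parts. Camk2b stood at 15.4, 2.11, 0.862 and 0.225 scaled FPKM in dendrite (home cage 1 and 2, fear conditioned 1 and 2) and at 17.3, 2.70, 1.80 and 7.60 in soma. The difference was -0.95 (SE 1.06, adjusted p = 0.614 by limma, exact permutation p = 0.343), near the -1.02 of its coding part. In the single-end table all 4 dendrite values (0 to 1.69 FPKM) lay below all 4 soma values (2.03 to 15.3; exact permutation p = 0.0286). For Camk2n1 the rest of the 3′ UTR was above 0 in all 8 paired-end immunoprecipitates, including the 2 dendrite libraries where its coding part was at 0: these gave 5.16 and 3.19 scaled FPKM, about 351 and 349 fragments. Its difference was -0.13 (SE 0.91, exact permutation p = 0.714).

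The ratio of the 2 parts within a library was tested for these 3 genes. For Camk2a the log2 ratio of the rest of the 3′ UTR to the coding part was 0.65 ± 1.34 in dendrite and 0.93 ± 0.71 in soma (SD, n = 4 each), a difference of -0.27 (exact permutation p = 0.714). The dendrite mean was raised by home cage dendrite 1, at 2.57, against 0.57, -0.17 and -0.36 in the others. For Camk2b the difference was 0.07 (exact permutation p = 0.971) and for Camk2n1 0.56 (exact permutation p = 0.571). None was larger than the spread between libraries.

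**Figure D3:**
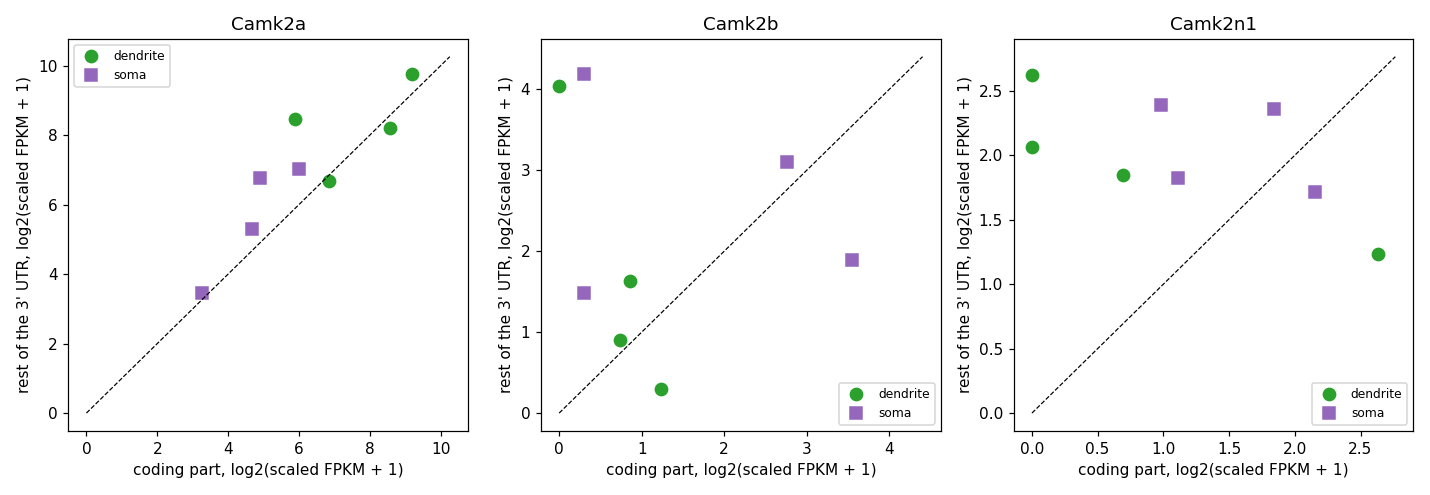
Rest of the 3′ UTR against coding part in the 8 paired-end immunoprecipitates, both as log2(scaled FPKM + 1); green circles are dendrite, purple squares soma, and the dashed line marks equal values. The Camk2a points farthest above the line are home cage dendrite 1, at 58.6 coding and 354 for the rest of the 3′ UTR, and fear conditioned soma 1, at 28.9 and 109; the Camk2n1 points at 0 on the horizontal axis are home cage and fear conditioned dendrite 2.

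Fear conditioning was compared with the home cage within each layer, 2 against 2, with the spread of all 8 immunoprecipitates. In dendrite the Camk2a values of 114 and 382 after fear conditioning lay between the home cage values of 58.6 and 586, a log2 difference of 0.17 (SE 1.55, adjusted p = 1 by limma). In soma both fear conditioned values (28.9 and 63.3) lay above both home cage values (24.7 and 8.61), a difference of 1.48 (SE 1.55, adjusted p = 0.708 by limma). Such a separation was common: both fear conditioned libraries lay above both home cage libraries for 33.4% of the genes tested, and the median difference over all of them was 0.43. No member passed: in each layer limma called 0 of 2928 genes (0% in dendrite and 0% in soma), with 96 and 217 at an unadjusted p under 0.05; of the 217 in soma, 174 were higher and 43 lower after fear conditioning. The differences of Camk2b and Camk2n1 were 0.56 and 0.97 in dendrite, with standard errors of 1.35 and 1.21. Camkk1 differed by -1.89 in dendrite (SE 1.30, adjusted p = 0.944 by limma), a value set by home cage dendrite 2. The difference of the effect between layers was also not past the threshold for any of the 4, and for Camk2a it was -1.31 (SE 2.20, adjusted p = 0.783 by limma).

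Immunoprecipitates were compared with supernatants to see which members are held on tagged ribosomes. In libraries of the same number and layer, on the scaling over 11 libraries, Camk2a stood at 531 scaled FPKM in the immunoprecipitate and 84.4 in the supernatant of home cage dendrite 2. The values were 379 and 138 in fear conditioned dendrite 2, and 51.5 and 46.0 in fear conditioned soma 2. In the single-end run the home cage dendrite 2 values were close together, at 227 and 209 (log2 difference 0.12, against 2.64 paired-end), and those of fear conditioned dendrite 2 were 397 and 174. Against both dendrite supernatants the 4 immunoprecipitates differed by 0.88 on the log2 scale (SE 1.23, adjusted p = 1 by limma); the replicate 2 immunoprecipitates lay above both supernatants and home cage dendrite 1, at 66.5, lay below both. Camk2n1 went the other way, with 0 in the immunoprecipitates against 8.43 and 7.07 in the supernatants of home cage and fear conditioned dendrite 2. All 4 dendrite immunoprecipitates of Camk2n1 (0 to 5.42) lay below both supernatants, a difference of -2.26 (SE 1.03, adjusted p = 1 by limma, exact permutation p = 0.133, as small as 4 against 2 can give). In the single-end run all 4 were listed at 0, against 7.91 and 18.2. The immunoprecipitate of home cage dendrite 2 held only about 0.550 M reads there. The rest of the 3′ UTR of Camk2n1 lay below both supernatants paired-end, at 1.41 to 4.68 against 7.09 to 7.57. Single-end it overlapped, at 0.495 to 21.8 against 4.48 to 7.61. The difference of the Camk2b coding part was -1.04 (SE 1.10, exact permutation p = 0.133). Its paired-end values also lay below both supernatants, at 0 to 1.35 against 3.33 and 1.58. In the single-end run this did not hold, since Camk2b stood at 10.05 in the immunoprecipitate of fear conditioned dendrite 2, above both supernatants (4.35 and 1.60). Lying below both supernatants was common: it held for 18% of 2938 genes, and lying above both for 4.39%. limma called 2 of them (0.0681%), neither a member. The summed level of 7 oligodendrocyte markers was 5.77 to 60.6 scaled FPKM in the dendrite immunoprecipitates and 110 to 117 in the supernatants. Sums of interneuron markers (0.343 to 15.7 against 18.5 to 38.0) and microglia markers (0.278 to 6.19 against 11.4 to 29.8) were also lower without overlap. Those of astrocyte and endothelial markers overlapped. The part of these cell types in the differences was not tested. In soma, 4 immunoprecipitates against 1 supernatant, limma called 0 genes (0%), with 28 at an unadjusted p under 0.05. The soma differences of the tested members ran from -0.97 for Camk2b to 0.00 for Camkk1.

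Other genes of the pathway were taken from lists chosen for their roles. The minimum for testing is a mean over both layers, so a gene can pass it through 1 layer alone. A gene that passes through soma alone tends to be negative, and through dendrite alone positive. Kalrn and Ppp3r1 had dendrite means of 0.548 and 0.434 and soma means of 9.85 and 14.6. Sign counts and medians of a list are therefore descriptions only. Of all genes tested 42.6% were positive. Among calmodulins and calmodulin-binding buffers 5 of 6 genes were tested and none was called. Calm3, which encodes calmodulin, ranged from 9.28 to 21.0 scaled FPKM in dendrite and from 2.87 to 229 in soma, with overlap. Among 14 synaptic partners and substrates 9 were tested, 1 positive and 8 negative, with a median difference of -1.23 against -0.30 over all genes tested. The positive one was Dlg4, the scaffold PSD-95, at 4.498 to 49.3 in dendrite and 0.362 to 4.43 in soma, without overlap (log2 difference 3.21, SE 1.09, adjusted p = 0.650 by limma). Grin2a, an NMDA receptor subunit that falls outside the naming rule and was chosen after its values were seen, separated the other way, at 0 to 0.107 in dendrite and 1.09 to 7.10 in soma (-2.32, SE 0.78, adjusted p = 0.650 by limma). Over all genes 1.71% separated with dendrite higher and 1.74% with dendrite lower. Grin1, the obligatory NMDA receptor subunit, and Kalrn, a guanine nucleotide exchange factor of dendritic spines, differed by -1.60 and -2.44 and overlapped. Among opposing phosphatases 8 of 10 were tested, 1 positive and 7 negative, with a median difference of -1.27 against -0.30 over all genes tested. The positive one was Ppp1r9b, encoding spinophilin, which targets protein phosphatase to spines, at 14.6 to 237 in dendrite and 1.97 to 17.2 in soma (3.22, SE 1.21, adjusted p = 0.650 by limma). Ppp3ca and Ppp3r1, calcineurin subunits, differed by -1.13 and -1.44. Of the nuclear and metabolic targets 3 of 10 were tested (Crebbp, Hdac5 and Mef2d), with differences of -0.47, 0.16 and -0.30. Of 11 other kinases and relatives 2 were tested, Camk1d and Dclk1, at -0.28 and -0.16; Camkv, a kinase-like protein, averaged 0.590 scaled FPKM and was not tested. limma called no gene of any list.

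The genes most like each member across the 11 libraries were named by Pearson's correlation among 256 or 257 genes with a mean of at least 10 scaled FPKM. For Camk2a they were Cnih2 (r = 0.87), Dlg4 (0.85) and Arf3 (0.83). For Camk2b they were Calm3 (0.86), H2afz (0.84) and Eif1 (0.83). For Camk2n1 they were Sepw1 (0.73), Hsbp1 (0.71) and Gpm6b (0.68). Over the 8 immunoprecipitates alone r was 0.48 for Sepw1, 0.45 for Hsbp1 and 0.68 for Gpm6b; for the 6 genes named for Camk2a and Camk2b it was 0.84 to 0.92. The points share library depth and scaling, so these are descriptions over 11 libraries.

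**Figure D4:**
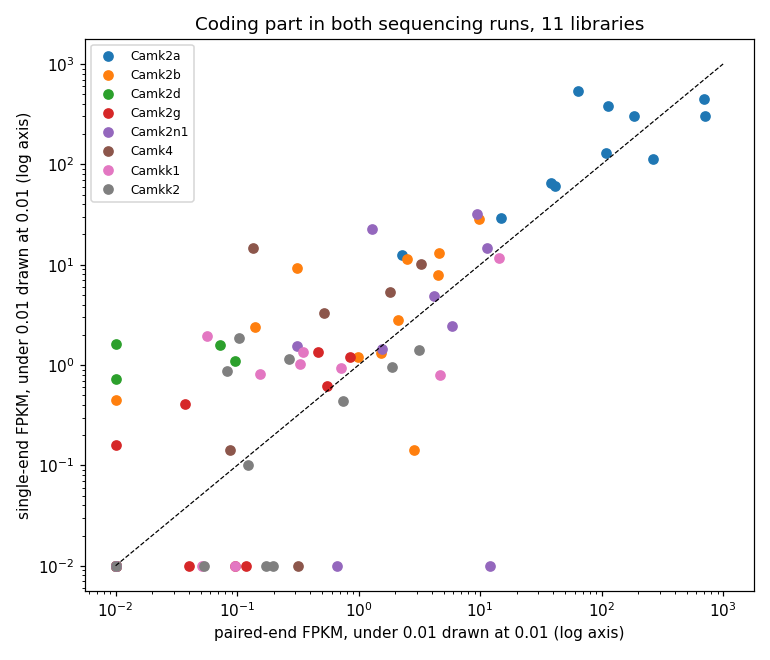
Deposited coding-part FPKM of the 8 members in the single-end run against the paired-end run of the same 11 libraries, on log axes with values under 0.01 drawn at 0.01; the dashed line marks equal values. Camk2a is farthest from the line in home cage dendrite 1 (63.6 paired-end, 535 single-end) and home cage soma 2 (2.30 and 12.4), and members of low level scatter more and several are at the floor in 1 run only.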

How the data were processed

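Libraries were TruSeq DNA libraries made from RNA amplified by the Nugen Ovation system and digested with a single-strand nuclease, per the labels' protocols. CASAVA 1.9, STAR 2.1.1d, Cufflinks 2.0.2 and mm9 are named in the submitters' processing notes. The authors deposited FPKM for a coding part and the rest of the 3′ UTR of each gene, in a paired-end and a single-end table, per the file headers. Amplified RNA without molecular identifiers does not count molecules. No source used here says whether strand was used in counting.

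Paired-end libraries were divided by their median ratio to the geometric mean over genes above 0 in every library of the fit (870 genes for 8 immunoprecipitates, 765 for 11 libraries). The 3′ UTR part took the factors of the coding part. limma 3.58.1 (R 4.3.3) with trended moderation was fitted on log2(scaled FPKM + 1) over all genes with a mean of at least 1, so differences of low genes are understated; p-values were adjusted by Benjamini-Hochberg at 0.05. Exact permutation tests were two-sided. The fits were also run on simulated data, but the share of changes recovered is not reported here. Fragment numbers are approximate: the value of 1 fragment came from the spacing of low FPKM of genes with 1 model of at least 1500 bases, and the length used was that of the longest model less 150 bases. Very small values above 0 were kept as deposited.

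The members and lists were chosen with earlier results of these data known. The scaling genes were fixed with the design. During the work a stricter set (mean FPKM of at least 1, 672 genes) was for a time used in place of the fixed one, after Camk2a had been seen to overlap; the fixed set was restored, and the stricter one is an alternative chosen after seeing the data. All members are named; of each list, the 3 genes with the highest mean, except that some values of the calmodulin list are not reported here. Alternatives were pseudocounts 0.1 and 5, other expression minimums, values as deposited, the single-end table, robust moderation, a replicate block and leaving out each library.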

Additional observations from a re-analysis of the deposited data

Results flagged for a closer look

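In 14 of 32 groups of 4 immunoprecipitates (each member, part and layer) 1 library lay far from the other 3. For 4 values drawn from 1 normal distribution the rule is met in about 1 of 20 groups. These values were not on a log scale and each group held both behaviours, so that rate cannot be applied to them. Groups with most values at 0 meet the rule easily. The coding part of Camk2n1 was 5.20 scaled FPKM in fear conditioned dendrite 1, against 0 to 0.613 in the other dendrite immunoprecipitates. The coding part of Camkk1 was 11.9 in home cage dendrite 2, against 0 to 0.0887. The coding part of Camk4 was 1.89 in fear conditioned soma 2, against 0 to 0.102. The rest of the 3′ UTR of Camk2b was 15.4 in home cage dendrite 1, against 0.225 to 2.11, and its single-end run gave 0.369 FPKM. The rest of the 3′ UTR of Camkk2 was 4.88 in fear conditioned soma 2, against 0 to 0.781, and its single-end run gave 8.13 FPKM. The rest of the 3′ UTR of Camk4 was 1.56 in fear conditioned dendrite 1, against 0.00212 to 0.268.

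The other 8 cases were all in replicate 1 of the fear conditioned immunoprecipitates, each the highest of its group but at a low level, with at least 2 of the other 3 libraries at or in effect at 0. In dendrite they were the coding parts of Camk2d (0.0416) and Camk4 (0.138) and the rest of the 3′ UTR of Camk2d (0.339), Camkk1 (0.203) and Camkk2 (0.213). In soma they were the coding part of Camk2d (2.54e-42, in effect 0) and the rest of the 3′ UTR of Camk2d (0.0887) and Camkk1 (0.272). Fear conditioned dendrite 1 had 12205 genes above 0 in the coding part, against 3344 to 6147 in the other dendrite immunoprecipitates. Fear conditioned soma 1 had 9267, against 3220 to 9211 in the other soma immunoprecipitates. The part of this wider detection in these cases was not tested.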

How the results depend on the processing

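No tested member passed the limma threshold under any alternative run. Camk2a stayed higher in dendrite in the coding part (2.30 to 3.80; 2.15 to 3.83 leaving out a library) and likewise beyond it in the 3′ UTR (2.50 to 3.54), with adjusted p by limma from 0.381 to 0.723 and from 0.0896 to 0.623 over the alternatives that kept all libraries. Its exact test did depend on the scaling: p was 0.0571 as designed and as deposited, and 0.0286 under 4 of 5 sets of scaling genes tried after the values were seen. Of 242 member values under settings that kept all libraries 16 changed sign, and of 180 that left out a library 26 did; the cause was not tested.

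The number of genes called for dendrite against soma became 1 as deposited and 1 in the single-end table. For fear conditioning in soma it became 1 as deposited, and 0 to 135 leaving out a library: 102 without home cage soma 2, 135 without fear conditioned soma 1 and 121 without fear conditioned soma 2. For immunoprecipitate against supernatant in dendrite it was 1 with a pseudocount of 0.1, of 5, a minimum of 5 or the replicate block, 10 in the single-end table, 376 with no minimum, and 0 to 1 leaving out a library. In soma it was 1 with a pseudocount of 0.1 or a minimum of 5, 10 in the single-end table and 935 with no minimum. For the rest of the 3′ UTR it was 3 with a minimum of 5, 1 with the replicate block, and 0 to 243 leaving out a library (216 without fear conditioned soma 1, 243 without fear conditioned soma 2).

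Signs that turned were these. Camkk1, dendrite against soma, became -0.23 with a pseudocount of 0.1 (-0.25 to 1.14 leaving out a library). For fear conditioning in dendrite, Camk2a became -1.31 in the single-end table (-1.53 to 1.85 leaving out a library), and Camk2n1 ran from -0.32 to 2.22. In soma, Camk2b became 0.85 as deposited and 2.05 in the single-end table (-2.09 to 1.31), Camk2n1 -0.27 with scaling genes of a mean of at least 1 (-0.50 to 0.66), and Camkk1 ran from -0.50 to 1.30. For the difference between layers, Camk2b became -0.75 and Camk2n1 -0.44 in the single-end table; leaving out a library gave -2.96 to 0.41 for Camk2a, -0.63 to 2.70 for Camk2b and -0.43 to 2.12 for Camk2n1. For immunoprecipitate against supernatant in soma, Camkk1 became -0.56 with a pseudocount of 0.1, -0.023 with 5 and -0.48 in the single-end table (-0.65 to 0.24), and Camk2n1 0.13 in the single-end table. For the rest of the 3′ UTR, Camk2n1 became 0.51 as deposited and 0.64 in the single-end table (-0.34 to 0.13). For the ratio of parts, Camk2a became 0.32 and Camk2b -1.84 in the single-end table; leaving out a library gave -0.91 to 0.066 and -0.94 to 1.06.

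Correlations of same-numbered deviations, between dendrite and soma immunoprecipitates and between the 2 behaviours, were -0.02 to 0.06. The closest soma library was the same-numbered one for home cage dendrite 1 and fear conditioned dendrite 1 and 2, but not for home cage dendrite 2. Values this small cannot decide whether same-numbered libraries are paired. Pairing of immunoprecipitates with supernatants was not checked. With the replicate block Camk2a in soma, immunoprecipitate against supernatant, became 0.11. The soma comparison without its only supernatant could not be fitted. Depth per member varied widely between libraries, from 0 to about 604 fragments for the coding part of Camk2b in the paired-end runs.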
